A study of Oryctolagus cuniculus with 16 samples.

Results

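The insulin-like growth factor (IGF) system examined here comprises the ligands, the IGF1 receptor and the IGF-binding proteins (IGFBPs). Its 10 genes were chosen by name as *IGF1*, *IGF2*, *IGF1R* and *IGFBP1* to *IGFBP7*. Of these, 7 were found by gene symbol among the 20255 genes of the count table, and all 7 passed the filter on low counts. *IGF2*, *IGFBP1* and *IGFBP3* were not analysed here.

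Femoral heads of 8 rabbits were profiled by total RNA-seq after ribosomal RNA had been depleted. The Perthes disease group held 5 immature rabbits, which were 8 weeks old when the femoral neck was ligated and the ligamentum teres transected to interrupt the blood supply. The control group held 3 rabbits labelled wild type. The groups are labelled as genotypes, although the methods describe a surgical model, and the age of the controls, any sham operation and the time from surgery to sampling are not given in the sources used here. The summed counts per library were 27331725, 28469720, 29348018, 29137905 and 29461482 for Perthes rabbits 1 to 5. For control rabbits 1 to 3 they were 27586064, 26757087 and 28783082. Levels are given as CPM, counts scaled to a common library total. At this depth 1 count equalled between 0.0333 and 0.0374 CPM, and the 7 IGF genes held between 458 and 38554 counts in each library. CPM values are scaled by the trimmed mean of M values (TMM) and are not corrected for gene length, so levels were compared between rabbits and not between genes. The p-values measure the spread between these samples, which the labels describe as replicate rabbits.

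The tissue label was compared with marker genes of bone and cartilage. *COL1A1* and *COL1A2* of bone matrix, and *COL2A1* of cartilage, were abundant in all 8 libraries. The 11 osteoblast and osteocyte markers summed to between 88816 and 243784 CPM, and the 7 measured chondrocyte markers to between 38934 and 151313 CPM. EdgeR called 0 of the osteoblast and osteocyte markers (2 higher at an unadjusted p below 0.05), and DESeq2 called 1 higher. Of all tested genes edgeR called 6.21% higher and 8.86% lower, and 2345 of 15305 were higher at an unadjusted p below 0.05. The hepatocyte markers *APOA1* and *F2* held no more than 10 counts in any library. The 4 measured skeletal muscle markers summed to between 3.06 and 61.6 CPM, with *TTN* the most abundant.

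IGF1 is a small secreted hormone related to insulin, made by the liver under growth hormone and also locally by cells of bone and cartilage, where it drives growth of the growth plate and matrix formation by osteoblasts. It acts through a tyrosine kinase receptor on the cell surface, which recruits adaptor proteins and activates PI3K and AKT. Most IGF in tissue is held by binding proteins, which can restrain it, carry it or store it in matrix, and proteases that cut them release the ligand.

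Of the 7 IGF genes tested, 2 rose in Perthes disease, *IGFBP2* and *IGFBP7*, and the other 5 did not pass the test. The call was an adjusted p below 0.05 in edgeR's quasi-likelihood test with Benjamini-Hochberg adjustment, for which 15305 genes were tested. By the same rule 6.21% of all tested genes were higher in Perthes disease and 8.86% were lower. At an unadjusted p below 0.05 edgeR had 5 of the 7 higher, beside 2345 of the 15305 genes tested. DESeq2 called 3 of the 7 higher, beside 1700 of all genes. None of the 7 fell in edgeR (0 at an unadjusted p below 0.05), and DESeq2 called 0 lower. The median log2 fold change of the 7 genes was 0.77, and that of all tested genes was 0.025. For 3 of the 7, *IGF1R*, *IGFBP2* and *IGFBP7*, every Perthes rabbit lay above every control. Groups that did not overlap were found for 25.2% of all tested genes in either direction, and for 11.2% with Perthes disease higher. Among all called genes 58.8% were lower in Perthes disease, and this share was 71.5% when counts were scaled by library totals alone.

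**Figure D1:**
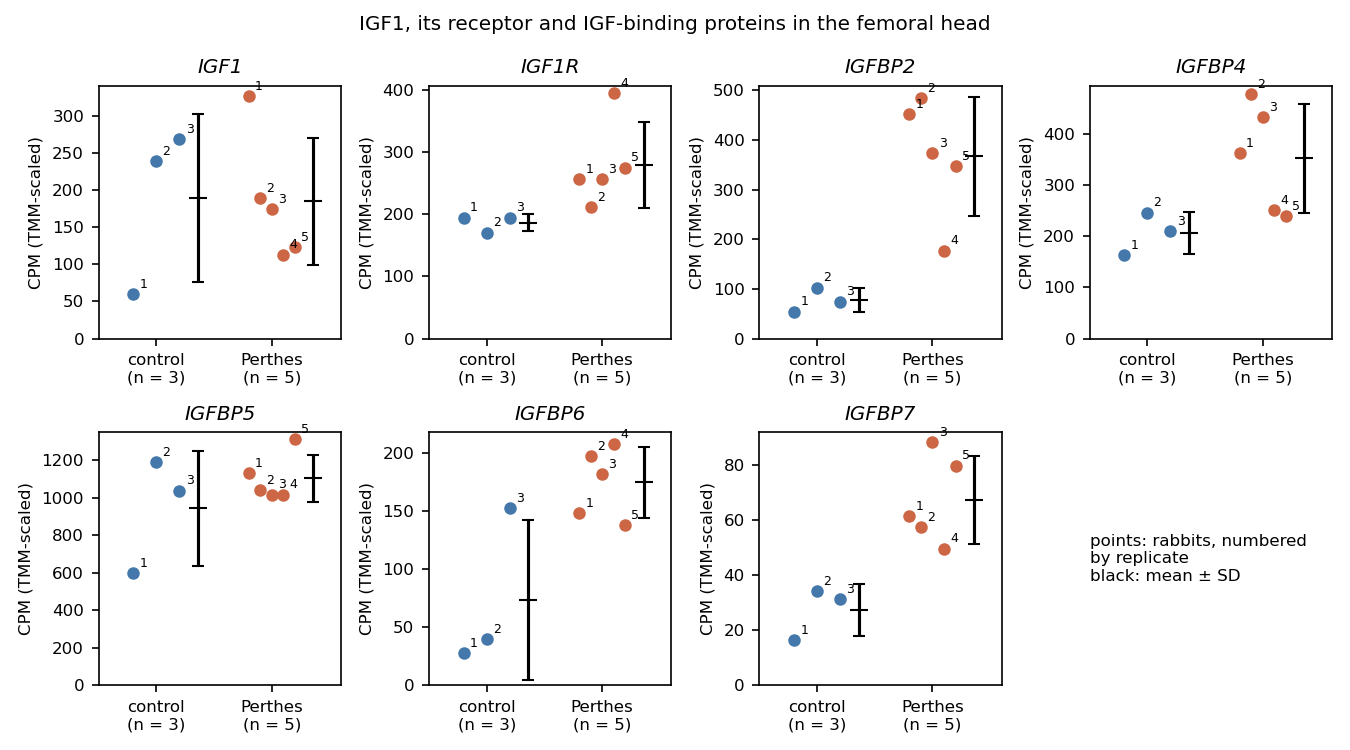
TMM-scaled CPM of the 7 measured IGF genes, with a linear axis from 0 for each gene. Points are rabbits numbered by replicate, and black bars are the mean ± SD of each group (n = 3 control, n = 5 Perthes). *IGFBP2* and *IGFBP7* are higher in all 5 Perthes rabbits than in any control, while *IGF1* and *IGFBP5* overlap widely.

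*IGF1*, the measured ligand, stood at 327, 189, 174, 113 and 123 CPM in Perthes rabbits 1 to 5 and at 59.3, 238 and 268 CPM in control rabbits 1 to 3. The groups overlapped throughout, with both the lowest and the second highest value in the controls. The means were 185 ± 85.5 CPM (SD, n = 5) in Perthes disease and 189 ± 113 CPM (SD, n = 3) in the controls. The difference, a log2 fold change of -0.028, had a 95% interval from -1.15 to 1.09, and the adjusted p of edgeR's quasi-likelihood test with Benjamini-Hochberg adjustment was 0.974. Control rabbit 1 alone held the lowest value, and without it the log2 fold change was -0.45. Without control rabbit 3 it was 0.31. A difference within this interval was not detectable with these rabbits. In such bulk tissue, fewer cells of a type and less RNA per cell cannot be told apart.

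*IGF1R*, the tyrosine kinase receptor for IGF1 and IGF2, stood at 257, 211, 257, 395 and 275 CPM in the Perthes rabbits and at 195, 170 and 195 CPM in the controls. Every Perthes rabbit was above every control, with Perthes rabbit 4 the highest. The means were 279 ± 69.1 CPM (SD, n = 5) and 187 ± 14.0 CPM (SD, n = 3). The *IGF1R* log2 fold change of 0.58 (SE 0.22, 95% interval 0.081 to 1.08) did not pass the threshold in edgeR's quasi-likelihood test with Benjamini-Hochberg adjustment (adjusted p = 0.107). An exact two-sided permutation test of *IGF1R* over all 56 divisions of the rabbits gave p = 0.0357. That is the smallest p this form of the test can give, and groups that do not overlap always reach it.

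*IGFBP2*, a secreted protein that binds both IGFs and can also bind integrins and matrix, stood at 452, 484, 373, 177 and 347 CPM in Perthes rabbits 1 to 5. In the controls it stood at 54.2, 102 and 74.5 CPM. All 5 Perthes rabbits were above the highest control, and Perthes rabbit 4 was the lowest of its group. The means were 367 ± 120 CPM (SD, n = 5) and 77.0 ± 24.2 CPM (SD, n = 3). *IGFBP2* rose 4.76-fold (95% interval 2.68 to 8.47), a log2 fold change of 2.25 (SE 0.37), with an adjusted p of 0.0123 in edgeR's quasi-likelihood test with Benjamini-Hochberg adjustment. The exact permutation p was 0.0357. Without control rabbit 1 the log2 fold change was 2.05 (edgeR adjusted p = 0.0514, Benjamini-Hochberg), and without control rabbit 2 it was 2.51 (adjusted p = 0.0519), so that the call was lost while the direction held. Over all the alternatives the adjusted p ranged from 2.95e-08 to 0.0933.

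*IGFBP7*, a matrix-associated relative with low affinity for IGFs, stood at 61.6, 57.7, 88.4, 49.7 and 80.0 CPM in the Perthes rabbits and at 16.4, 34.1 and 31.2 CPM in the controls. The groups did not overlap, and control rabbit 1 was the lowest of all. The means were 67.5 ± 16.1 CPM (SD, n = 5) and 27.2 ± 9.53 CPM (SD, n = 3). *IGFBP7* rose 2.48-fold (95% interval 1.57 to 3.91), a log2 fold change of 1.31 (SE 0.29), with an adjusted p of 0.0214 in edgeR's quasi-likelihood test with Benjamini-Hochberg adjustment. The exact permutation p was 0.0357. The call was lost when any of 4 rabbits was left out. The edgeR adjusted p (Benjamini-Hochberg) was then 0.050 without Perthes rabbit 3, 0.0517 without Perthes rabbit 5, 0.0657 without control rabbit 1 and 0.0585 without control rabbit 2. In those fits the log2 fold changes were 1.19, 1.24, 1.05 and 1.5. Over all the alternatives the adjusted p ranged from 0.000373 to 0.128.

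*IGFBP4*, which mainly restrains IGFs until it is cleaved by the protease PAPPA, stood at 362, 478, 432, 251 and 239 CPM in the Perthes rabbits and at 163, 246 and 210 CPM in the controls. Of the Perthes rabbits, 4 were above all controls, and Perthes rabbit 5 lay just below control rabbit 2. *IGFBP4* had a log2 fold change of 0.77 (95% interval 0.13 to 1.41) with an adjusted p of 0.0981 in edgeR's quasi-likelihood test with Benjamini-Hochberg adjustment, and DESeq2 placed it past the threshold at 0.0437, the lowest of a range over the alternatives that reached 0.265.

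*IGFBP5*, which binds to mineral and matrix in bone, stood at 1132, 1042, 1016, 1016 and 1312 CPM in the Perthes rabbits and at 598, 1192 and 1038 CPM in the controls. The groups overlapped, and control rabbit 1 was far below the other 7 rabbits. *IGFBP5* had a log2 fold change of 0.23 (95% interval -0.35 to 0.80), with an adjusted p of 0.570 in edgeR's quasi-likelihood test with Benjamini-Hochberg adjustment. Without control rabbit 1 it was -0.013.

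*IGFBP6*, which prefers IGF2 over IGF1, stood at 148, 197, 182, 207 and 138 CPM in the Perthes rabbits and at 27.7, 39.7 and 153 CPM in the controls. Control rabbit 3 lay within the Perthes range, while control rabbits 1 and 2 were far below it. A log2 fold change of 1.25 (95% interval 0.095 to 2.41) was obtained with an adjusted p of 0.129 in edgeR's quasi-likelihood test with Benjamini-Hochberg adjustment. Without control rabbit 3 it was 2.37 with an adjusted p of 0.0190, and the adjusted p over all the alternatives ranged from 0.0190 to 0.345.

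Together the 5 measured IGFBP genes summed to 2156, 2259, 2092, 1700 and 2116 CPM in the Perthes rabbits and to 859, 1614 and 1506 CPM in the controls. The summed level was higher in every Perthes rabbit than in any control. The make-up of this sum also differed between the groups. *IGFBP2* supplied 21.0%, 21.4%, 17.8%, 10.4% and 16.4% of the IGFBP counts in the Perthes rabbits and 6.30%, 6.34% and 4.95% in the controls. *IGFBP5* supplied 53.8% ± 6.90 (SD, n = 5) in Perthes disease and 70.8% ± 2.68 (SD, n = 3) in the controls, and its shares did not overlap either. Shares are parts of a whole, so higher shares of other genes lower that of *IGFBP5*. Its own level was not lower, at a log2 fold change of 0.23. *IGFBP7* supplied 3.27% ± 0.704 (SD, n = 5) and 2.03% ± 0.112 (SD, n = 3), while the shares of *IGFBP4* and *IGFBP6* overlapped. Counts depend on gene length, so a share can be compared between rabbits but not with the share of another gene. These sums and shares were not tested.

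**Figure D2:**
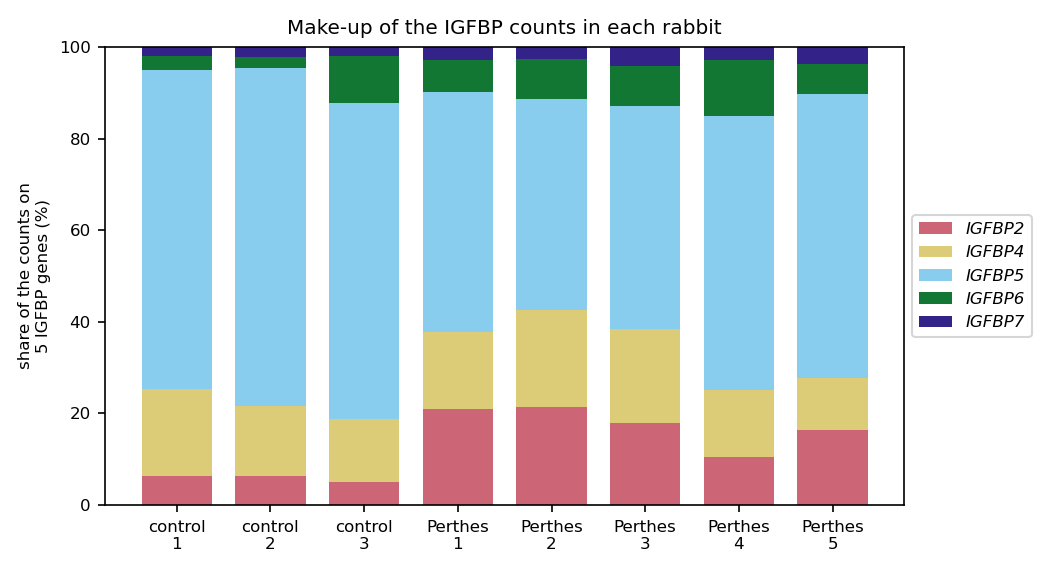
Share of the counts on the 5 measured IGFBP genes that each gene took in each rabbit, in percent, uncorrected for gene length. The *IGFBP2* share is between 10.4% and 21.4% in the Perthes rabbits and between 4.95% and 6.34% in the controls.

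In the RefSeq annotation of the rabbit assembly mOryCun1.1, *IGFBP2* and *IGFBP5* are direct neighbours. *IGFBP2* rose while *IGFBP5* did not pass the test. The ratio of their counts was 0.334 ± 0.115 (SD, n = 5) in Perthes disease and 0.0828 ± 0.00981 (SD, n = 3) in the controls, without overlap. This ratio was not tested, and it contains the *IGFBP2* difference given above.

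Correlations of log2 CPM over the 8 rabbits were sought among tested genes whose symbol is not an identifier. Closest to *IGFBP2* were *NIPSNAP3A* (Pearson r = 0.988), *MTURN* (0.987) and *SLC26A7* (0.983). Among those closest to *IGFBP7* were *JAG1* (0.988) and *NRP2* (0.984). These values describe 8 rabbits in which the groups differ, so part of each correlation is the group difference itself. For deviations from the group means r was 0.927, 0.935 and 0.968 with *IGFBP2*, and 0.988 and 0.938 with *IGFBP7*. The genes were selected as the highest of those searched, which raises these values.

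Beyond these genes, 53 of 68 listed genes of the wider IGF pathway were in the count table and 51 passed the filter. By the same call of edgeR, of the 51, 4 rose (*IGF2R*, *ADAM9*, *HTRA1* and *CCN1*), 2 fell (*FOXO3* and *CISH*) and 45 did not pass the test. Over all tested genes 6.21% were called higher and 8.86% lower. The median log2 fold change of the 51 was 0.14. The groups did not overlap for 9 of them, beside the 25.2% of all tested genes.

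Of the other receptors of IGFs and insulin, 1 of 2 tested rose, beside 6.21% of all tested genes. *IGF2R*, the mannose 6-phosphate receptor that carries enzymes to lysosomes and removes IGF2 from the cell surface, stood at 584, 509, 721, 288 and 657 CPM in the Perthes rabbits and at 188, 181 and 198 CPM in the controls. Every Perthes rabbit was above every control, and Perthes rabbit 4 was again the lowest of its group. *IGF2R* rose 2.92-fold (95% interval 1.83 to 4.66), a log2 fold change of 1.55 (SE 0.30), with an adjusted p of 0.0150 in edgeR's quasi-likelihood test with Benjamini-Hochberg adjustment. *INSR*, the insulin receptor, stood at 69.9, 109, 99.7, 140 and 93.4 CPM in the Perthes rabbits and at 159, 125 and 121 CPM in the controls. Of the Perthes rabbits, 4 were below all controls and Perthes rabbit 4 was not. *INSR* had a log2 fold change of -0.40 (95% interval -0.90 to 0.11) and did not pass the test (edgeR adjusted p = 0.256, Benjamini-Hochberg). The ratio of *INSR* to *IGF1R* counts was 0.374 ± 0.0901 (SD, n = 5) in Perthes disease and 0.723 ± 0.0993 (SD, n = 3) in the controls, and every Perthes rabbit was below every control. The ratio of *IGF2R* to *IGF1R* counts was 2.12 ± 0.805 (SD, n = 5) and 1.01 ± 0.0466 (SD, n = 3), and the groups overlapped because Perthes rabbit 4, at 0.728, was below all controls. These ratios were computed after the values were seen and were not tested. *INSRR*, an orphan relative, was below the filter.

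Among the proteases that cut IGFBPs, *ADAM9* and *HTRA1* rose. *ADAM9*, a membrane metalloprotease, stood at 335, 142, 180, 125 and 252 CPM in the Perthes rabbits and at 46.3, 51.4 and 66.8 CPM in the controls. *HTRA1*, a secreted serine protease of matrix and IGFBPs, stood at 580, 533, 470, 1374 and 1086 CPM in the Perthes rabbits and at 162, 235 and 380 CPM in the controls. For both genes all Perthes rabbits were above all controls, and Perthes rabbit 4 was the lowest of its group for *ADAM9* and the highest for *HTRA1*. *ADAM9* had a log2 fold change of 1.91 (SE 0.36, edgeR adjusted p = 0.0138, Benjamini-Hochberg), and *HTRA1* of 1.64 (SE 0.46, adjusted p = 0.0422).

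*PAPPA*, the metalloprotease of IGFBP4, stood at 51.1, 33.4, 62.1, 106 and 82.5 CPM in the Perthes rabbits and at 12.3, 24.0 and 36.5 CPM in the controls. Of the Perthes rabbits, 4 were above all controls, and Perthes rabbit 2 lay within the control range. The estimate, a log2 fold change of 1.47 (95% interval 0.47 to 2.46), had an adjusted p of 0.0545 in edgeR's quasi-likelihood test with Benjamini-Hochberg adjustment. *PAPPA* was past the threshold in DESeq2 (adjusted p = 0.00747) and in edgeR without Perthes rabbit 2 (0.0268) or control rabbit 3 (0.0447), and the range over all the alternatives was 0.00747 to 0.206. The stanniocalcins bind PAPPA and inhibit it. *STC2* averaged 25.0 ± 14.4 CPM (SD, n = 5) in Perthes disease and 8.30 ± 5.01 CPM (SD, n = 3) in the controls, and its log2 fold change was 1.59 (95% interval 0.36 to 2.83, edgeR adjusted p = 0.0802, Benjamini-Hochberg). *STC2* was past the threshold in DESeq2 (adjusted p = 0.0162) and in edgeR without Perthes rabbit 2, and the adjusted p over all the alternatives ranged from 0.0162 to 0.316. *STC1* averaged 20.7 ± 10.2 CPM (SD, n = 5) and 12.1 ± 3.42 CPM (SD, n = 3), and its log2 fold change was 0.77 (95% interval -0.13 to 1.68, edgeR adjusted p = 0.218, Benjamini-Hochberg). *PAPPA2*, a related protease, had a log2 fold change of -0.40 (95% interval -1.44 to 0.64). Its groups overlapped fully, and it was chosen for naming after its values were seen. *IGFALS*, the carrier of circulating IGF complexes, was not analysed here. Over the 7 tested genes of this protease and carrier list, 2 rose, 5 did not pass the test, and the median log2 fold change was 1.47. Over all tested genes 6.21% rose and the median was 0.025.

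In the growth hormone arm, 1 of 5 tested genes fell, beside 8.86% of all tested genes. *CISH*, a feedback inhibitor switched on by STAT5 signalling, stood at 9.83, 12.2, 10.4, 9.79 and 10.1 CPM in the Perthes rabbits and at 17.3, 18.7 and 16.6 CPM in the controls. The groups were narrow and did not overlap. *CISH* had a log2 fold change of -0.74 (SE 0.15), with an adjusted p of 0.0159 in edgeR's quasi-likelihood test with Benjamini-Hochberg adjustment. *GHR*, the growth hormone receptor, had a log2 fold change of -0.36 (95% interval -0.96 to 0.24) and *STAT5B*, the transcription factor downstream of it, of -0.57 (95% interval -1.13 to -0.010). Neither passed the test (edgeR adjusted p = 0.379 and 0.150, Benjamini-Hochberg), and both were chosen for naming after their values were seen. *STAT5B* was past the threshold only without Perthes rabbit 2 (edgeR adjusted p = 0.0484, Benjamini-Hochberg).

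Of the 11 adaptors and phosphatases tested, edgeR called 0 in either direction (1 higher and 1 lower at an unadjusted p below 0.05), and DESeq2 called 0. Of all tested genes edgeR called 6.21% higher and 8.86% lower. At an unadjusted p below 0.05 it had 2345 higher and 2538 lower of 15305. DESeq2 called 1700 of all genes higher and 1917 lower. *IRS1* and *IRS2*, the docking proteins of the insulin and IGF1 receptors, were chosen for naming after their values were seen. *IRS1* averaged 137 ± 12.9 CPM (SD, n = 5) in Perthes disease and 98.6 ± 25.8 CPM (SD, n = 3) in the controls, with every Perthes rabbit above every control. *IRS2* averaged 2.55 ± 0.834 CPM (SD, n = 5) and 4.58 ± 1.42 CPM (SD, n = 3), with 4 of 5 Perthes rabbits below all controls. Their log2 fold changes were 0.47 (95% interval 0.017 to 0.93) and -0.84 (95% interval -1.57 to -0.12), at edgeR adjusted p-values (Benjamini-Hochberg) of 0.143 and 0.107.

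In the list of PI3K, AKT, mTOR and FOXO genes, 1 of 17 tested genes fell and 0 rose, beside 8.86% and 6.21% of all tested genes. DESeq2 called 2 lower and 1 higher, and edgeR had 2 lower and 1 higher at an unadjusted p below 0.05. The median log2 fold change of the list was 0.018, and that of all tested genes 0.025. *FOXO3*, a transcription factor that AKT keeps out of the nucleus, stood at 122, 174, 134, 151 and 107 CPM in the Perthes rabbits and at 283, 303 and 264 CPM in the controls. All Perthes rabbits were far below all controls. *FOXO3* had a log2 fold change of -1.04 (SE 0.19, edgeR adjusted p = 0.0135, Benjamini-Hochberg). *FOXO4*, a relative named after its values were seen, averaged 27.5 ± 6.38 CPM (SD, n = 5) and 42.4 ± 4.53 CPM (SD, n = 3) without overlap. Its log2 fold change was -0.63 (95% interval -1.08 to -0.17, edgeR adjusted p = 0.0648, Benjamini-Hochberg). *FOXO4* was past the threshold in DESeq2 (adjusted p = 0.0493) and in edgeR with library totals alone (0.0274) or without Perthes rabbit 4 (0.0221), and the range over all the alternatives was 0.0221 to 0.206.

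The IGFBP family has relatives that share its amino-terminal domain but bind IGFs weakly. Of 7 such relatives tested, 1 rose in edgeR, beside 6.21% of all tested genes. At an unadjusted p below 0.05 edgeR had 2 of them higher, beside 2345 of the 15305 genes tested. DESeq2 called 2 higher, beside 1700 of all genes. *CCN1*, a matrix protein that binds integrins, stood at 172, 206, 211, 325 and 194 CPM in the Perthes rabbits and at 87.9, 113 and 151 CPM in the controls. The groups did not overlap, and Perthes rabbit 4 stood well above the others. *CCN1* had a log2 fold change of 0.92 (SE 0.27) with an edgeR adjusted p of 0.0484 (Benjamini-Hochberg), and over all the alternatives the adjusted p ranged from 0.0109 to 0.172. The InterPro family IPR000867 (insulin-like growth factor-binding protein), as annotated in the authors' table, marked 9 genes, 3 of them IGFBP genes described above, and the median log2 fold change of the other 6 was 0.66. Of the IGF2 mRNA-binding proteins, 2 of 3 were tested. EdgeR called 0 of them (1 higher at an unadjusted p below 0.05), and DESeq2 called 1 higher.

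Leaving out control rabbit 1 or control rabbit 2 removed each of the 6 calls among these pathway genes in edgeR. Without control rabbit 1 the adjusted p (Benjamini-Hochberg) was 0.0614 for *IGF2R*, 0.0631 for *ADAM9*, 0.143 for *HTRA1*, 0.157 for *CCN1*, 0.0514 for *FOXO3* and 0.0545 for *CISH*. Without control rabbit 2 it was 0.0655, 0.0616, 0.141, 0.154, 0.0583 and 0.0742 for the same genes in that order. *HTRA1* also lost its call without Perthes rabbit 1 (edgeR adjusted p = 0.0501), 3 (0.0543) or 5 (0.0906), *CCN1* without Perthes rabbit 2 (0.0582), 3 (0.0893) or 5 (0.0842), and *CISH* without Perthes rabbit 5 (0.0514). *CCN1* also lost its call with DESeq2's size factors (edgeR adjusted p = 0.0508), library totals alone (0.0621) or no filter (0.0537). Without control rabbit 2, edgeR called 0 of all tested genes in either direction, while 1624 were higher and 2098 lower at an unadjusted p below 0.05. Without control rabbit 1 it called 73 higher and 184 lower. The directions of the 6 genes were the same in each of the 14 alternatives.

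**Figure D3:**
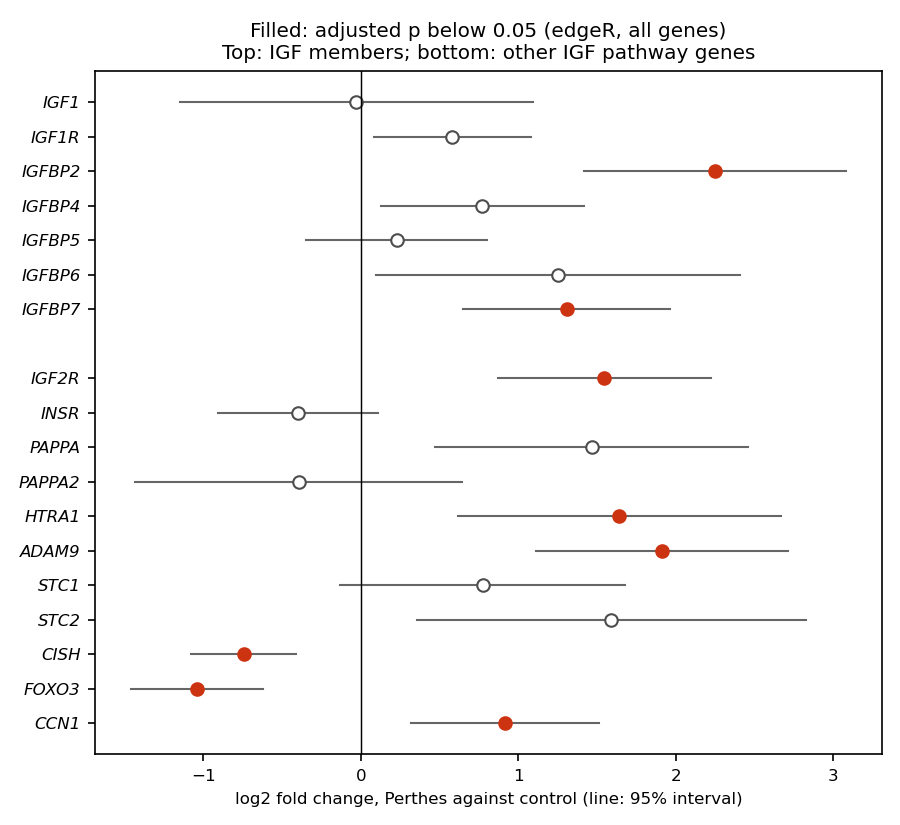
Log2 fold change of Perthes disease against control for the 7 measured IGF genes (top) and 11 other IGF pathway genes (bottom), with lines for 95% intervals. Filled points passed an adjusted p of 0.05 in edgeR. *IGFBP2* has the highest estimate shown, 2.25, and *FOXO3* the lowest, -1.04.

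Perthes rabbit 4 was at an end of its group for several of the named genes. It had the lowest *IGF1*, *IGFBP2*, *IGFBP5*, *IGFBP7*, *IGF2R*, *STAT5B*, *ADAM9* and *CISH* and the highest *IGF1R*, *IGFBP6*, *INSR*, *PAPPA*, *STC1*, *STC2*, *IRS2*, *FOXO4*, *HTRA1* and *CCN1* of the Perthes rabbits. Its gap to the nearest rabbit took more than 0.71 of the range of the group only for *CCN1*, and for *IGF1*, *IGFBP5*, *IGFBP7*, *STAT5B*, *ADAM9* and *CISH* another Perthes rabbit stood farther out at the other end. On the first principal component of log2 CPM, with 56.1% of the variance, Perthes rabbit 2 lay at 5.21, between the other Perthes rabbits (-93.7, -37.4, -24.7 and -70.9 for rabbits 1, 3, 4 and 5) and the controls (97.0, 75.5 and 49.0). On the second, with 13.1% of the variance, Perthes rabbit 4 lay apart at -78.4. Its 7 measured chondrocyte markers summed to 151313 CPM, against 38934, 43569, 81178 and 64423 CPM in Perthes rabbits 1, 2, 3 and 5 and 49401, 47032 and 68428 CPM in the controls. *COL2A1* was the most abundant of these. EdgeR called 0 of the 7 (3 higher at an unadjusted p below 0.05), and DESeq2 called 0. For all tested genes the edgeR shares were 6.21% higher and 8.86% lower, and 2345 of 15305 were higher at an unadjusted p below 0.05. The part of cartilage in the values of this rabbit was not tested.

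The summed levels of some markers of other cell types differed between the groups. The 8 stromal fibroblast markers, led by *COL3A1*, summed to 26320, 14883, 15477, 19681 and 19483 CPM in the Perthes rabbits and to 1673, 3529 and 9127 CPM in the controls, and 3 of the 8 rose in edgeR (4 in DESeq2, and 4 at an unadjusted p below 0.05 in edgeR). The 5 measured smooth muscle and pericyte markers, led by *ACTA2*, summed to 426, 219, 433, 193 and 483 CPM and to 54.2, 94.1 and 93.7 CPM, and 2 of the 5 rose (3 and 3). Both sums were higher in every Perthes rabbit than in any control. The 5 measured macrophage markers, led by *CSF1R*, summed to 1539, 872, 1187, 433 and 1474 CPM in the Perthes rabbits and to 406, 371 and 348 CPM in the controls, and 4 of the 5 rose (4 and 4). The 6 osteoclast markers, led by *CTSK*, summed to 3290, 3089, 3188, 1529 and 4369 CPM and to 717, 1259 and 1231 CPM, and 2 of the 6 rose (4 and 4). The pairs in brackets give the counts of DESeq2 and of the unadjusted p in the same order. Over all tested genes edgeR called 6.21% higher, and 2345 of 15305 were higher at an unadjusted p below 0.05. DESeq2 called 1700 of all genes higher.

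The summed markers of 3 kinds of blood cell were lower in every Perthes rabbit than in any control, while most of the single markers did not pass the test of edgeR. The 6 erythroid markers, led by *SLC4A1*, summed to 31.8, 2117, 368, 413 and 73.5 CPM in the Perthes rabbits and to 5052, 5124 and 4490 CPM in the controls, and 1 of the 6 fell in edgeR (4 in DESeq2, and 6 at an unadjusted p below 0.05 in edgeR). The 6 measured neutrophil markers, led by *LCN2*, summed to 19.6, 1140, 447, 1198 and 120 CPM and to 14479, 4856 and 4690 CPM, and 3 of the 6 fell (6 and 6 in the same order). The 5 measured B cell markers, led by *CD79B*, summed to 5.20, 24.4, 9.22, 12.8 and 5.48 CPM and to 27.3, 41.9 and 25.0 CPM, and 1 of 4 tested fell (2 and 3). Over all tested genes edgeR called 8.86% lower, and 2538 of 15305 were lower at an unadjusted p below 0.05. DESeq2 called 1917 of all genes lower. The 7 endothelial markers, led by *PECAM1*, summed to a mean of 356 CPM in Perthes disease and 353 CPM in the controls, and the 5 measured adipocyte markers, led by *LPL*, to means of 985 and 826 CPM. EdgeR called 0 in either list, with 1 endothelial and 0 adipocyte markers higher at an unadjusted p below 0.05, and DESeq2 called 1 endothelial and 0 adipocyte markers higher. No measured marker of these lists was at 0 in all 8 libraries. The part of these cell types in the IGF results was not tested.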

How the data were processed

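Total RNA-seq libraries of 5 Perthes and 3 control rabbits were used, grouped by their labels. The third control is titled with number 2 and coded with number 3, and was taken as control rabbit 3. Small RNA libraries were not used here. The authors made directional libraries from 5 µg of RNA, sequenced them as 150 bp read pairs, and processed reads with SOAPnuke, HTSeq 1.99.2, RSEM 1.1.17 and HISAT2 2.0.4. The values deposited are expected counts for each gene, not normalized. Between 10.0% and 10.7% of a library's values had a decimal part, and all were rounded. Another 8 columns repeat these values and were not used.

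Under R 4.3.3, edgeR 4.0.16 provided TMM scaling, the filterByExpr filter by group, which kept 15305 of 20255 genes, and the quasi-likelihood test. Its p-values were adjusted by the Benjamini-Hochberg method. The scripts were tested on simulated data. Standard errors were derived from each log2 fold change and its F statistic. Log2 CPM used a prior count of 2. The common biological coefficient of variation was 0.361, so spread between rabbits and not counting limited precision. No batch is named in the sources used here. Single genes were also compared by an exact two-sided permutation test over 56 divisions. Its p was 0.857 for *IGF1*, 0.0714 for *IGFBP4*, 0.464 for *IGFBP5* and 0.107 for *IGFBP6*.

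The members and all gene lists were chosen with earlier results of these data known. Named were all 10 IGF genes, other pathway genes with an adjusted p below 0.05, *INSR*, *IGF2R*, *IGFALS*, *PAPPA*, *STC1* and *STC2* whatever their values, and the 3 genes most correlated with each called member, of which 1 is not reported here. *PAPPA2*, *GHR*, *STAT5B*, *IRS1*, *IRS2* and *FOXO4* fall outside this rule and were named after their values were seen. Correlated genes were sought only among tested genes whose symbol was a name and not an identifier (LOC or BGI). Genes matched by symbol, and neighbours came from RefSeq. Alternatives were DESeq2 1.42.0, its size factors in edgeR, library totals alone, no filter, at least 10 counts in every library, a block for the replicate number, and leaving out each rabbit.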

Additional observations from a re-analysis of the deposited data

Results flagged for a closer look

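Within the Perthes group, 23 named genes were searched for a rabbit whose gap to its nearest neighbour took more than 0.71 of the range of the group, and 2 stood out. *CISH* was at 12.2 CPM in Perthes rabbit 2, above the other 4 Perthes rabbits and still below all controls. *CCN1* was at 325 CPM in Perthes rabbit 4, above the other 4. Chance flags about 1 in 20 groups.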

How the results depend on the processing

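The 7 log2 fold changes of the IGF genes kept their direction in all 14 alternatives except for *IGF1* and *IGFBP5*. With each rabbit left out in turn, *IGF1* ranged from -0.45 to 0.31 and *IGFBP5* from -0.013 to 0.43. Scaling by DESeq2's size factors or library totals and both other filters left the count of IGF genes called higher at 2, and DESeq2 called 3. With 1 rabbit left out, edgeR called 0 to 3 IGF genes higher (3 at an unadjusted p below 0.05 without control rabbit 1 or 2), 0 to 7 other pathway genes higher and 0 to 3 lower. For all genes it called 0 to 1267 higher and 0 to 1628 lower. DESeq2 called 9 other pathway genes higher, and 1700 of all genes higher. Leaving out a rabbit lowers the sample number, and the cause of the other shifts was not tested. For the tested genes of the wider pathway that are named singly, the alternatives were chosen after seeing the data, and each of these named genes kept its direction in all 14. The other genes of the pathway were not followed singly.

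The replicate numbers do not pair the rabbits: deviations from the group means correlated at -0.317, 0.161 and -0.238 for equal numbers, and no control correlated best with the Perthes rabbit of its own number. With the replicate number as a block, edgeR called 0 IGF genes, 0 other pathway genes and 0 of all genes, higher or lower. Perthes rabbits 4 and 5 have no control of the same number. Under the block they add nothing to the group difference, so this fit uses fewer rabbits than the main one. The block gave, at an unadjusted p below 0.05, 4 IGF genes higher, 6 other pathway genes higher and 3 lower, and 1504 of all genes higher and 1648 lower. *IGF1* had a log2 fold change of 0.43 under the block. The median log2 fold change of all genes was 0.025 with TMM and -0.062 with library totals alone.

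Control ages, sampling times and batches are not given in the sources used here, the tissue is a mixture of cell types, and transcript counts do not measure IGF or IGFBP protein or its cleavage.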
